A study of Mus musculus with 12 samples.

Results

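The 3 lipoxygenase genes Alox5, Alox12 and Alox15 and the 4 leukotriene receptor genes Ltb4r1, Ltb4r2, Cysltr1 and Cysltr2 were compared between blood monocytes (MNCs) and Kupffer cells (KCs), which reside in the liver as its macrophages. The genes were chosen by name, and all 7 were found among the 248 inflammation genes of the nanostring panel, an assay that counts single mRNA molecules by fluorescent barcodes after hybridisation, with no amplification. There were 6 samples of MNCs from blood and 6 of KCs from liver, all from mice of strain Balb/C, with no treatment, genetic change or age in the labels. MNCs as well as KCs were taken out of the cell suspensions with beads that bind F4/80, a protein on the surface of macrophages, and the livers, unlike the blood, were first perfused and digested with collagenases. Each sample was a pool of sorted cells, from 5 mice by the labels and from 4 to 5 by the methods of the study, and 100 ng of total RNA entered each reaction.

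Lipoxygenases add oxygen to arachidonic acid, which phospholipase A2 frees from membranes. The product of Alox5 is the precursor of all leukotrienes, and it is turned either into leukotriene B4, which attracts neutrophils and other leukocytes, or into the cysteinyl leukotrienes, which constrict smooth muscle and make vessels leak. Alox15 and Alox12 form hydroxy acids of arachidonic acid instead, Alox15 in several macrophage types and eosinophils, and Alox12 above all in platelets. The leukotrienes act through receptors on the surface of cells, Ltb4r1 and Ltb4r2 for leukotriene B4 and Cysltr1 and Cysltr2 for the cysteinyl leukotrienes.

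The values were reporter counts multiplied by 1 factor per lane, called normalized counts below. The samples held 162988 to 348248 counted molecules in MNCs and 84401 to 145662 in KCs, and the factor was 0.554 to 1.13 in MNCs and 1.30 to 2.17 in KCs. A gene under the background of its lane (the highest negative control) was listed at that count, 5 to 27 in MNCs and 7 to 14 in KCs, without the factor. For such a gene only an upper limit is known, the listed background or its product with the factor, whichever is higher, and at most 27 normalized counts in an MNC sample and 30.4 in a KC sample. Gapdh, a housekeeping gene used in the scaling, had 1631 to 1767 normalized counts in MNC samples and 2159 to 4159 in KC samples, without overlap. KC samples 1 and 6 had the highest Gapdh, with 4159 and 4084 normalized counts against 2159 to 2741 in the other KC samples. Both lay above all other KC samples in 18 of the 248 genes and below them in 65. Of the markers of monocytes and macrophages, the panel held Itgb2, Ccr2, Cd163, C1qa, C1qb and Tyrobp, and these 6 were above the background in all 12 samples. Clec4f, Vsig4 and Timd4, further markers of this list that KCs express, were not among the 248 genes. In such bulk samples fewer cells of a type and less RNA per cell cannot be told apart.

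All 3 lipoxygenase genes were lower in KCs than in MNCs, while the receptors went in different directions. Alox15 was 32.0-fold and Alox5 5.69-fold lower in KCs (geometric means of the normalized count + 1). Alox12 was 10.2-fold lower with 2 of 6 KC samples at the background, and this size depends on how the background is set (6.51-fold with 1 common background floor in all samples). Of the receptors, Cysltr1 was 3.82-fold and Ltb4r1 1.70-fold lower, Cysltr2 was 2.40-fold higher, and for Ltb4r2, at the background in 9 of 12 samples, no difference was called. A gene was called where limma gave an adjusted p below 0.05, which held for 6 of the 7 genes against 56.5% of all 248. Of these 6, 5 were lower in KCs, against 21.4% of all genes, and 1 was higher, against 35.1%. In 5 members MNC and KC samples did not overlap, against 41.5% of all genes. MNCs were on top in 4 of these, against 15.7%, and KCs in 1, against 25.8%. The share of all calls that were higher in KCs was 62.1%, but 38.6% with each sample rescaled to the median of its genes and 47.7% after quantile normalization. The median log2 fold change (KCs over MNCs) was -3.35 over the 3 enzymes and -0.17 over the 4 receptors, and 0.05 over all genes tested. The receptor median lies between Ltb4r1 (-0.77) and Ltb4r2 (0.42). With the background at its upper limit in each lane Ltb4r2 was at 1.06, so the receptor median depends on the background. In the plot of each sample the distance between the cell types is widest for Alox15, and for Cysltr2 the KC samples are on top.

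**Figure D1:**
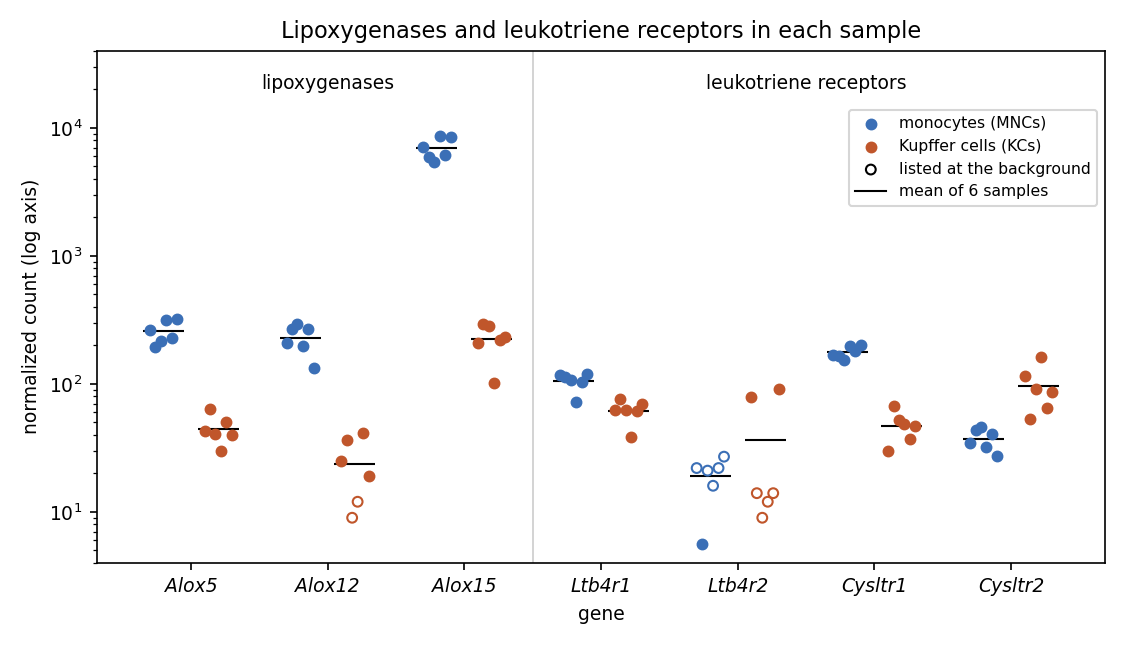
Normalized counts (log axis) of the 7 genes in 6 MNC samples (blue) and 6 KC samples (orange), with the mean of each group as a line and samples listed at the background as open circles. The MNC samples lie above all KC samples in the 3 lipoxygenases and Cysltr1, the KC samples lie above in Cysltr2, and Ltb4r2 stands out from the background in KC samples 1 and 6.

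The stretch before the start of transcription was found for 4 of the 7 genes in the RefSeq promoter table (GRCm38.p6), and 3 are shown. Alox5 is the enzyme that the leukotriene branch depends on, and Alox12 and Cysltr2 ranked the MNC samples in nearly the same order but differed between the cell types in opposite directions. Each is the 250 bases upstream of the start, in the direction of the gene. Capitals mark matches to 4 short motifs searched on both strands. These were GGGCGG, the GC box of Sp1-type factors, GAGGAA, a core of Ets factors such as PU.1, TTGCNNAA, a form of the C/EBP site, and TTC and GAA separated by any 4 bases, the spacing that STAT6 prefers.
Alox5, chr6:116461179-116461428, minus strand: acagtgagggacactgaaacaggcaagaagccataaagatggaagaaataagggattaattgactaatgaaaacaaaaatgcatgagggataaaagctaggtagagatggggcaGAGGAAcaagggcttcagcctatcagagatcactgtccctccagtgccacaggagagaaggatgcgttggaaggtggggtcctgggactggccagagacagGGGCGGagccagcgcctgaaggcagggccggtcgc
Alox12, chr11:70255371-70255620, minus strand: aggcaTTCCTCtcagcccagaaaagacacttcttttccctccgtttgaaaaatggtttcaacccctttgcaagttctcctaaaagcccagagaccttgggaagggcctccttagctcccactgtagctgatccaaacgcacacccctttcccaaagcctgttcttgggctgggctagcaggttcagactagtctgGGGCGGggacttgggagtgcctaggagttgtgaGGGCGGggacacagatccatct
Cysltr2, chr14:73049115-73049364, minus strand: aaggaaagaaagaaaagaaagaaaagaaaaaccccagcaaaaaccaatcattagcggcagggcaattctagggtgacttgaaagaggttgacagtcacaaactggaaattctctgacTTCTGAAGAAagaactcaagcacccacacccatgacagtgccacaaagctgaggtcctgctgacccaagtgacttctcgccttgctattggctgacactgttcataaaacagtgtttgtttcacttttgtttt
The Alox12 stretch held the GC box at positions -55 and -22 from the start, and Alox5 held it at -35. GAGGAA was found in both, at -136 in Alox5 and, on the opposite strand, at -245 in Alox12. Cysltr2 held neither of these but had the STAT6-type motif at -133. No match to TTGCNNAA lay in these 3 windows. Among all 32851 windows of the table, 32.7% held GGGCGG, 23.3% GAGGAA, 9.56% TTGCNNAA and 5.85% the STAT6-type motif, so the first 2 are common. The share of G and C was 52.8% in Alox5, 54.0% in Alox12 and 42.8% in Cysltr2, with a median of 52.4% over all windows. A match of letters is a description of the sequence and not a binding site.

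Alox15, which in the mouse forms mainly hydroxy acids and takes part in clearing dying cells, had by far the widest difference. It ranged from 5379 to 8562 normalized counts in MNC samples (median 6603) and from 102 to 296 in KC samples (median 225). The lowest MNC sample was therefore far above the highest KC sample, and even in KCs, where 48 to 162 molecules per sample were counted, no sample was near the background. The means were 6925 ± 1371 in MNCs and 223 ± 69.4 in KCs (SD, n = 6 samples each). This is a log2 fold change of -5.00 (95% confidence interval -5.52 to -4.48, adjusted p = 9.62e-10 from limma). KC sample 4 stood lowest, at less than any other sample of either cell type.

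Alox12, the platelet-type enzyme, has its gene next to that of Alox15 on mouse chromosome 11, with 1 protein-coding gene, Alox12e, between them (GRCm38.p6). It ranged from 132 to 292 normalized counts in MNC samples (median 239). In KCs it was listed at the background in samples 3 and 4, and the other 4 samples had 19.0 to 41.3 normalized counts, from only 9 to 20 counted molecules. The groups did not overlap, also with the background at its upper limit in each lane. The log2 fold change was -3.35 (95% confidence interval -4.09 to -2.60, adjusted p = 1.69e-06 from limma). It was -3.03 with the background at that upper limit and -2.70 with the common floor, and the size of the fall in KCs thus depends in part on the background, while its call does not.

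Alox5, the enzyme of leukotriene synthesis, had 195 to 323 normalized counts in MNC samples (median 247) and 29.8 to 64.0 in KC samples (median 42.0). The groups were well apart, although the KC values rest on 14 to 35 counted molecules a sample. Its log2 fold change was -2.51 (standard error 0.19, adjusted p = 8.11e-08 from limma). As in Alox15, KC sample 4 was the lowest.

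Of the receptors for leukotriene B4, the high-affinity receptor Ltb4r1 was lower in KCs, with the smallest difference among the genes called. It had 71.7 to 118 normalized counts in MNC samples (median 110) and 38.2 to 76.7 in KC samples (median 62.5). The groups overlapped, since MNC sample 4 lay below KC sample 2. The log2 fold change was -0.77 (95% confidence interval -1.16 to -0.38, adjusted p = 0.00249 from limma). With the samples of both types rescaled to the median of their genes it was -1.03, and after quantile normalization -1.37, each called.

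Ltb4r2, the low-affinity receptor, neighbours Ltb4r1 on chromosome 14 with no other protein-coding gene between them, and whether its probe also binds transcripts of the neighbour was not tested. It was listed at the background in 5 of 6 MNC samples, and the remaining one, sample 2, had 5.63 normalized counts, from 5 molecules, which is the background count of that lane. In KCs, samples 1 and 6 had 78.3 and 90.9 normalized counts, from 60 and 43 molecules, while the other 4 were at the background. KCs were thus split, with 2 samples clearly measured and 4 below at most 30.4 normalized counts. The log2 fold change was 0.42 (95% confidence interval -0.83 to 1.67, adjusted p = 0.517 from limma), it rose to 1.06 (adjusted p = 0.0558) with the background at its upper limit, and it turned to -0.48 (adjusted p = 0.273) without KC samples 1 and 6. The interval includes a difference of more than 2-fold in favour of KCs, so that the data do not show equal levels.

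KC samples 1 and 6 are also those that stood apart in Gapdh. The epidermal growth factor family gene Areg and the chemokine gene Ccl20, named after their values were seen, showed the same split, with 219 and 239 normalized counts for Areg and 91.3 and 178 for Ccl20 in these samples and the background in the other 4. Ccl5, a T and NK cell chemokine, was highest in the same pair, with 33369 and 16703 normalized counts against 6978 to 10134. Without this pair the other 6 members kept their direction and their call. The part that these samples play in the Ltb4r2 values was not tested further.

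Of the receptors for cysteinyl leukotrienes, Cysltr1, the target of the asthma drug montelukast, was lower in KCs. It had 154 to 202 normalized counts in MNC samples (median 174) and 30.01 to 67.6 in KC samples (median 47.7). The groups did not overlap, and the MNC samples were close to one another. Its log2 fold change was -1.93 (standard error 0.18, adjusted p = 6.87e-07 from limma).

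Cysltr2, which binds the same ligands and is known from endothelial cells and eosinophils, was the only member called higher in KCs. It ranged from 27.1 to 45.8 normalized counts in MNC samples (median 37.6) and from 53.0 to 161 in KC samples (median 89.1). The groups did not overlap, and KC sample 4, the lowest in Alox15, Alox5 and Ltb4r1, was the highest here. The log2 fold change was 1.26 (95% confidence interval 0.73 to 1.79, adjusted p = 0.000571 from limma). This call depends on the scaling between samples. Before the lane factor the counted molecules overlapped, 39 to 69 in MNCs and 29 to 89 in KCs, and after quantile normalization the log2 fold change was 0.49 (adjusted p = 0.172), within a range of adjusted p from 0.000183 to 0.172 over the alternatives. Rescaled to the median gene it was 1.01 (adjusted p = 0.003).

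A ratio of 2 genes in the same sample does not depend on the lane factor, and it was used to ask whether the genes changed by different amounts. Probes differ in efficiency, so that only changes of a ratio between samples can be read. The ratio of Cysltr1 to Cysltr2 was 3.35 to 7.43 in MNC samples (median 4.63) and 0.258 to 1.28 in KC samples (median 0.551). It did not overlap between the cell types, and its geometric mean was 4.81 in MNCs and 0.509 in KCs. The 2 receptors therefore changed by different amounts whatever the scaling. The ratio of Alox15 to Alox5 was 25.0 to 30.2 in MNC samples and 3.43 to 6.95 in KC samples. The spread in MNCs was small, so that these 2 genes kept nearly the same ratio from sample to sample. For Alox15 to Alox12, the ratio was 18.5 to 64.4 in MNC samples and 5.32 to 12.1 in the 4 KC samples where both were above the background. Ltb4r1 relative to Alox5 was 0.229 to 0.578 in MNCs and 1.20 to 1.74 in KCs, so that the receptor fell less than the enzyme. Cysltr1 relative to Alox5 overlapped between the cell types, with 0.624 to 0.850 in MNCs and 0.697 to 1.64 in KCs. These ratios were compared without a test.

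**Figure D2:**
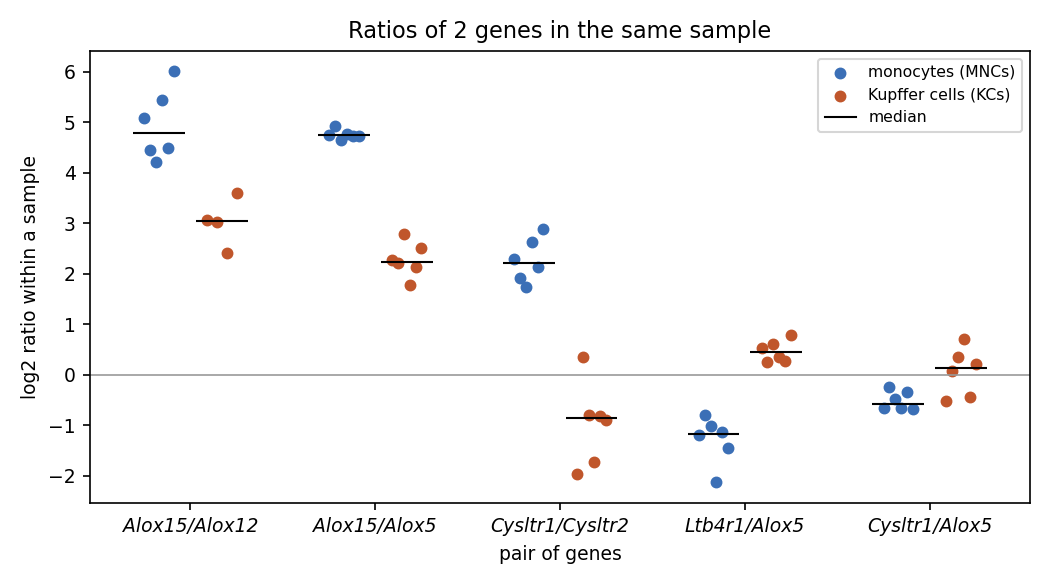
Log2 ratios of 2 genes within the same sample for 5 pairs, with each MNC sample in blue, each KC sample in orange and the median as a line; samples with either gene at the background are left out. The ratio of Cysltr1 to Cysltr2 had a median of 2.21 in MNCs and -0.86 in KCs, and that of Alox15 to Alox5 was tight in MNCs (4.65 to 4.92).

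Between the 6 MNC samples the members fell into 2 patterns. Alox15 was highest in samples 4, 6 and 1, with 8562, 8519 and 7099 normalized counts, and lowest in samples 5, 2 and 3, with 6107, 5883 and 5379. Alox5 was highest in the same 3 samples. Alox12 ran the other way, with 292, 270.1 and 269 normalized counts in samples 3, 5 and 2 and 208, 196 and 132 in samples 1, 4 and 6. Cysltr2 followed Alox12, from 45.8 in sample 3 to 27.1 in sample 6. The value in sample 6 rests on 49 counted molecules, against a background of 27 counts in that lane. Cysltr1 was highest in samples 6 and 4, as Alox5 was, and lowest in sample 3, and its range was narrow. Ltb4r1 followed neither pattern, with a low value in sample 4.

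Some markers of leukocytes moved with these patterns and others did not. Cd4, a T helper cell gene that some monocytes also express, ranged from 627 normalized counts in sample 3 to 340 in sample 6, and samples 1, 4 and 6 were its 3 lowest, as in Alox12. The same 3 samples were lowest in Ltb, a lymphocyte cytokine gene (1407 to 2288 against 2425 to 2561 in the others), and in Ccl5 (2311 to 3729 against 4726 to 4855). Of the other 3 genes of the T and NK cell list, Cd40lg did not share this order, since sample 2 lay below sample 1 (132 and 144). Sample 6 could not be ranked in Ifng, where it was at the background, and Il2 was at the background in 5 of the 6 samples. Of the 6 monocyte and macrophage markers, 3 had samples 1, 4 and 6 on top as Alox15 and Alox5 did, namely Itgb2, a leukocyte integrin gene (5907 to 7148 against 4849 to 5096), Tyrobp and C1qa. The other 3 did not, since sample 4 was the lowest of all in Ccr2 (1387) and Cd163 (52.3), and sample 5 lay above sample 1 in C1qb. The summed level of the 5 genes of the T and NK cell list was 2790 to 5684 normalized counts in MNC samples and 8178 to 34412 in KC samples. Most of this sum was Ccl5, with a mean of 3906 in MNCs and 14244 in KCs. Of the 5 genes, 3 (Cd40lg, Ifng and Ccl5) were called higher in KCs, against 35.1% of all genes. Cd4 and Il2 were not called (adjusted p = 0.166 and 0.0515 from limma). Of the platelet list the panel held only Cxcl5, at the background in 11 of 12 samples, so the platelet content was not measured. The part of lymphocytes or platelets in the Alox12 and Cysltr2 values was not tested. The samples were ordered by their values here, and no test was made between them.

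**Figure D3:**
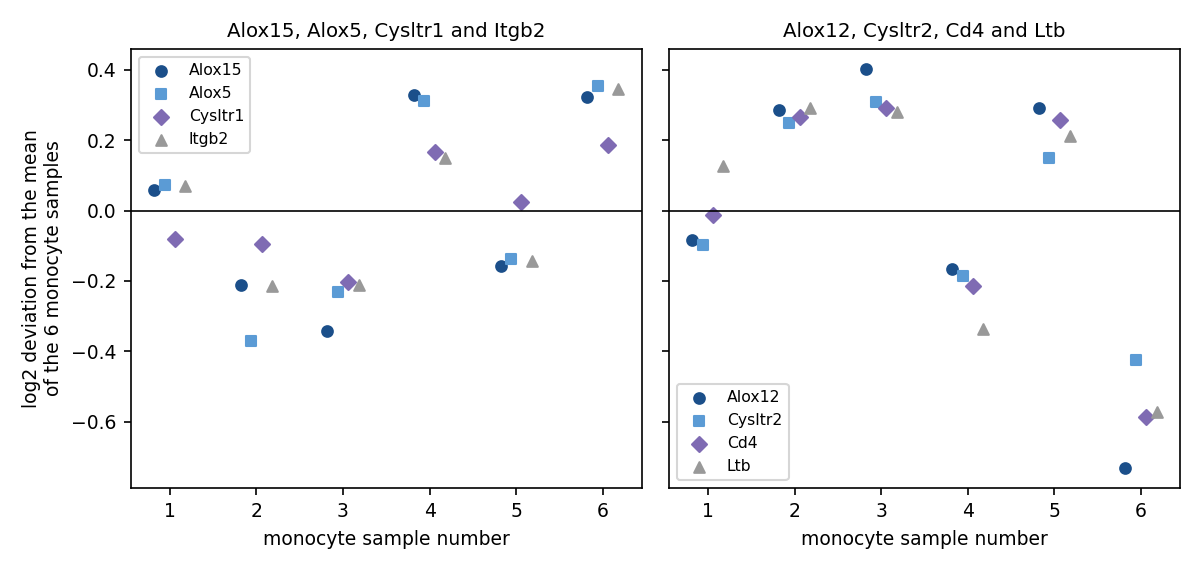
Log2 deviation of each of the 6 MNC samples from the MNC mean for Alox15, Alox5 and Cysltr1 with the leukocyte integrin gene Itgb2 (left) and for Alox12 and Cysltr2 with Cd4 and Ltb (right). Markers of the lists that did not share these orders (Ccr2, Cd163, C1qb and Cd40lg) are not shown. Samples 4 and 6 are above the mean on the left and below it on the right, and sample 3 is the reverse.

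The genes most like each member were sought by the root mean square difference of log2 values, each gene centred on its own mean, among genes above the background in all samples used. Alox12 and Ltb4r2, with samples at the background, were left out. Over all 12 samples, Alox5 was closest to C3ar1, the receptor for the complement fragment C3a (0.29), and Alox15 to the chemokine genes Cxcl2 (0.63) and Cxcl1 (1.03). Cysltr1 was closest to Tlr8, a sensor of RNA (0.23), and to Ptgs1 (0.26). Ltb4r1 was closest to Rhoa (0.28), and Cysltr2 to the interferon-induced gene Mx2 (0.32). Over 12 samples this measure includes the difference between the cell types. The nearest genes thus had similar log2 fold changes, such as -2.40 in C3ar1 and -1.90 in Tlr8. For Alox15 no gene compared was as near as for the other members. Tgfb2 and Retnla, which also differed widely (log2 fold changes -5.36 and -10.2), were not compared, since some KC samples were at the background. Over the 6 MNC samples alone, a step added after seeing the data, the nearest genes of Alox15 were Cebpb (0.068), a transcription factor of myeloid cells, and Alox5 (0.081). Those of Alox12 were Tlr9, a sensor of DNA (0.072), Ccl5 (0.077) and Cd4 (0.083). All samples of a type share their sorting, so that such likeness is a description of these 12 lanes.

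Some genes listed for other cell types also differed between the groups. Of the hepatocyte list 8 of 8 genes were called higher in KCs, against 35.1% of all genes. Their summed level was 42.9 to 216 normalized counts in MNC samples, where 7 of the 8 were at the background in every sample. In KC samples it was 4008 to 13939. Of the 6 genes listed for peritoneal macrophages, all 6 were called lower in KCs, against 21.4% of all genes. They include Alox15 itself with Retnla, Tgfb2, Ccl24, Cxcl1 and Cxcl2. Their sum was 23924 to 42190 in MNC samples and 433 to 780 in KC samples. All cell type lists were chosen with earlier results of these data known. Such counts are therefore descriptions and no independent evidence of a cell type. The 2 genes of the endothelial and stellate cell list, Flt1 and Pdgfa, were called higher in KCs, against 35.1% of all genes (summed level 75.7 to 93.1 in MNCs and 121 to 245 in KCs). Flt1 was at the background in 5 of 6 MNC samples, and Pdgfa overlapped between the groups. In KC sample 4, the sample with the highest Cysltr2, these markers did not move together: Flt1, a receptor of vascular endothelial growth factor, had its highest KC value there (151 normalized counts), but Pdgfa its second lowest (74.4 in a range of 56.5 to 165). Ccr3, an eosinophil receptor, was called higher in KCs, and was lowest in KC sample 4 (70.1 in a range of 70.1 to 203), while Il5 of the same list was not called (summed level 30.4 to 54.0 in MNCs and 82.1 to 217 in KCs). Of the 2 neutrophil genes, Cxcr2 was not called (adjusted p = 0.475), and Cxcr1, called lower (adjusted p = 0.0183), was at the background in 11 of 12 samples (summed level 79.2 to 280.3 in MNCs and 73.6 to 160 in KCs). Ltb, the only gene of the B cell list, was not called (adjusted p = 0.149). Of the 6 monocyte and macrophage markers, 4 (Itgb2, C1qa, C1qb and Tyrobp) were called lower in KCs, against 21.4% of all genes, and Cd163 higher, against 35.1%. The sum of the 6 markers was 16680 to 26957 in MNCs and 6226 to 10897 in KCs. The part of these cells in the differences of the members was not tested.

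The panel held 11 other genes of the arachidonic acid cascade. Of these, 3 were called lower in KCs, against 21.4% of all genes, and 2 higher, against 35.1%. Their median log2 fold change was -0.62. This is the value of Ptgdr2, at the background in 5 of 6 MNC and 5 of 6 KC samples. With the background at its upper limit, Ptgdr2 was at 0.18, so the median depends on the background. Ptgs1, the constitutive cyclooxygenase, had 416 to 637 normalized counts in MNC samples and 87.4 to 219 in KC samples (log2 fold change -1.85, adjusted p = 8.36e-06 from limma). Like the lipoxygenases, it did not overlap between the cell types. Ptgir, the prostacyclin receptor, had 56.3 to 97.9 normalized counts in MNC samples. In KCs it reached 36.5 at most, and 2 of the 6 samples were at the background (log2 fold change -1.67, adjusted p = 0.000105). The phospholipase Pla2g4a, which frees the arachidonic acid used by all these enzymes, had 86.7 to 125 in MNC samples and 41.8 to 98.7 in KC samples (log2 fold change -0.65, adjusted p = 0.0185). The groups overlapped, and without KC samples 1 and 6, its 2 lowest, its log2 fold change was -0.35 (adjusted p = 0.0655).

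The 2 prostaglandin E receptors Ptger4 and Ptger2 were called higher in KCs, Ptger4 by 0.52 on the log2 scale (adjusted p = 0.00965) and Ptger2 by 0.57 (adjusted p = 0.0164). Neither call was stable to the scaling. Rescaled to the median gene, both lost it (adjusted p = 0.195 and 0.0835), and after quantile normalization Ptger4 was at 0.07 (adjusted p = 0.749) and Ptger2 turned to -0.50 (adjusted p = 0.0057). Ptgs2, the inducible cyclooxygenase, was not called (log2 fold change -0.26, adjusted p = 0.502), but was lower in KCs after quantile normalization (-1.04, adjusted p = 0.0133). No sample had Ptger1 or Ptgfr above the background, and Ptgdr2, listed as Gpr44, was at it in 10 of 12, so that differences in these genes were not detectable at this depth. Ptger3 and Tbxa2r, the thromboxane receptor, were at the background in 4 and 5 of 12 samples and not called. With the background at its upper limit, Tbxa2r was called higher in KCs (log2 fold change 0.49, adjusted p = 0.014), as it was without KC sample 4 (0.54, adjusted p = 0.0115).

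**Figure D4:**
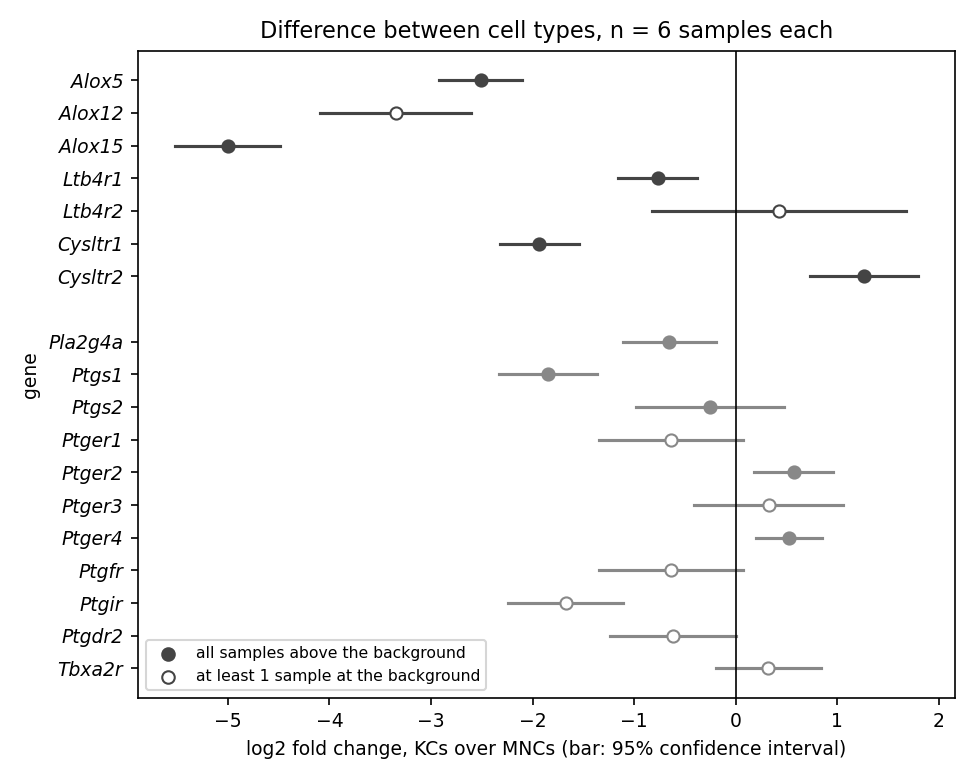
Log2 fold change (KCs over MNCs, horizontal axis) with its 95% confidence interval from limma for the 7 genes (dark) and for 11 other genes of the arachidonic acid cascade (grey), n = 6 samples each; open circles have at least 1 sample at the background. Alox15 lies farthest to the left at -5.00, and Cysltr2 is the only member whose interval lies above 0.

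Of the cytokines that induce Alox15 in macrophages, Il4 and Il13 were on the panel, along with Il10. Il4 was at the background in 5 of 6 MNC and 2 of 6 KC samples and not called (adjusted p = 0.631). Il13 was at the background in 11 of 12 samples. Its call as lower in KCs (log2 fold change -0.76, adjusted p = 0.0183) compares background counts of different lanes, and with the background at its upper limit the log2 fold change was 0.10 (adjusted p = 0.752). Il10 was not called (adjusted p = 0.0946), with 7 of 12 samples at the background.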

How the data were processed

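The mRNA of 248 inflammation genes was measured in 6 MNC and 6 KC samples, on the nCounter panel Mouse Inflammation V2. The deposited signal is the reporter count that the authors normalized in nSolver 4.0 to the geometric means of positive controls and housekeeping genes, after setting the background to the highest of the 8 negative controls. Groups and sample numbers came from the sample titles, and nothing but the pooling says that samples are separate collections, so that p-values measure the spread between these samples. Dividing the values above the background of a lane by their smallest common step gave whole numbers within 0.02, taken as counted molecules, and the step as the lane factor. Since background values were deposited without the factor, a count model was not fitted. The number of samples, 6 per cell type, and the background limit the precision.

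The test was limma 3.58.1 (R 4.3.3), two-sided and with moderated variances, on log2 of the value plus a pseudocount of 1. P-values were adjusted by Benjamini-Hochberg over all 248 genes, with a threshold of 0.05. All adjusted p-values of the text come from this test or its alternatives. The limma fit was tested on simulated data, where all genes given a change were above the background. This does not cover changes in genes at the background. The added 1 makes fold changes understate the change of low genes. Housekeeping genes and control probes were left out. Other steps ran in Python 3.11.15 with pandas 2.3.3, numpy 2.4.6 and scipy 1.17.1, and figures in matplotlib 3.10.9. The members and lists were chosen with earlier results of these data known. The genes named are the members, the genes of the eicosanoid, cytokine and cell type lists, and the 3 genes most like each member; others are said to have been chosen after their values were seen. Alternatives were another pseudocount, a filter on low genes, other scalings and backgrounds, a replicate block, samples left out and an exact permutation test. The promoter sequences are from RefSeq (GRCm38.p6). The RT-PCR, western blot, proteome and miRNA measurements were not analysed here.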

Additional observations from a re-analysis of the deposited data

Results flagged for a closer look

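Among 32 groups of 6 samples examined (the members and the other eicosanoid genes, each in MNCs and KCs, without the 4 groups of Ptger1 and Ptgfr, at the background in every sample), a single sample stood far from the others in 2, where chance gives about 1 in 20 groups. Ltb4r1 had 71.7 normalized counts in MNC sample 4, below the next lowest sample at 104, a gap of 0.696 of the range of the group. Ptgs2 had 112 normalized counts in MNC sample 6, above the next highest at 62.0, a gap of 0.813 of the range.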

How the results depend on the processing

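Alox5, Alox12, Alox15, Ltb4r1 and Cysltr1 kept their direction and their call in all 22 alternatives, among them the replicate block, and 5 members were called lower in each. Alox15 ranged from -5.28 to -4.79, Alox12 from -3.70 to -2.70, Alox5 from -3.23 to -2.29, Cysltr1 from -2.63 to -1.74 and Ltb4r1 from -1.37 to -0.64. The number of members called higher was 1, and 0 after quantile normalization, where Cysltr2 lost its call (0.49). Without KC samples 1 and 6, an alternative chosen after seeing the data, Ltb4r2 turned to -0.48. Leaving out each sample in turn kept 1 member higher and 5 lower.

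Rescaling to the median gene moved the median log2 fold change of all genes from 0.05 to -0.21, and without MNC sample 2, the lane with the lowest background, 50.0% of all calls were higher in KCs. The number of all genes called lower was 53, and it was 108 with rescaling to the median and 46 to 86 with single samples left out, the highest without MNC sample 2. Of the other eicosanoid genes, 3 were called lower, 6 after rescaling to the median, 5 after quantile normalization and 3 to 6 with single samples left out. The 6 without MNC sample 2 and those after rescaling include Ptger1, Ptgfr and Ptgdr2, which were at or near the background throughout. Of the same genes 2 were called higher, 0 with either of these rescalings and 2 to 3 with single samples left out. Under the replicate block Pla2g4a lost its call (adjusted p = 0.0576), with 2 eicosanoid genes lower in place of 3. Whether same-numbered samples belong together is not known. The correlation of deviations between same-numbered MNC and KC samples ran from -0.23 to 0.40. It was not compared with that of differently numbered samples, so it cannot settle the pairing. The block called 83 genes higher and 49 lower. The cause of these changes was not tested. Depth limits Ltb4r2, Alox12 in KCs and the genes at the background.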
